A study of Mus musculus with 12 samples.

Results

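The 51 mitosis and spindle genes described here are the cyclins, kinases, checkpoint proteins, kinetochore proteins, motors and cytokinesis factors that carry a cell through mitosis. They were chosen by name, as genes known for these roles, and every probe on the array whose gene is one of them was taken. Of 18100 genes tested on the array, 37 were members, and the other 14 members had no probe that passed the detection filter. RNA from livers of F2 male mice of the strain C3H/HeN, about 74 weeks old, was measured on 12 Agilent 1-colour (Cy3) whole-genome arrays in 4 groups of 3. The arsenite line gave 3 of them, namely its tumours, its non-tumour liver and its normal liver, from F2 males whose F0 grandmothers drank tap water holding sodium arsenite at 85 ppm between gestation days 8 and 18. The fourth group was non-tumour liver of the control line, whose F0 grandmothers drank plain tap water over that time. The F1 mice of the arsenite line were thus carried by mothers that drank arsenite. No F1 or F2 mouse of either line was itself given arsenite, and in both lines F1 males and females were mated with each other at 10 weeks of age. The labels do not say how normal and non-tumour liver were told apart, or whether the samples of a group came from separate mice, so the p-values measure the spread between the numbered samples. The 3 groups without tumours are called livers below.

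A dividing cell enters mitosis when cyclin B binds and activates the kinase Cdk1. Polo-like and Aurora kinases then build the spindle, kinetochores tie chromosomes to it, and the spindle checkpoint holds back the anaphase-promoting complex until every chromosome is attached. Most of these genes are transcribed only late in the cell cycle, and hepatocytes of an adult liver rarely divide, so in liver they are widely used as a readout of dividing cells.

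Promoter windows of these genes were read from RefSeq, on the mouse build GRCm38.p6, to show what the members share besides their roles. Each window held 300 bases, 250 before the annotated start and 50 after it, and 42 members had at least 1 window (45 windows in all). 2 motifs were searched on both strands: the cell cycle homology region, spelled TTTGAA or TTCGAA, and the CCAAT box, spelled CCAAT. The homology region stood in 34 of the 45 windows (75.6%), against 19.2% of the 32851 windows of all genes. A CCAAT box stood in 68.9% of the member windows, against 37.4% of all windows, and both motifs together stood in 62.2%, against 7.53%. The homology region was also found in a narrow place: 30 of 45 member windows (66.7%) had it within 40 bases of the annotated start, against 4.50% of all windows. A match is a description of letters and not a binding site or a cause. The 6 windows below are shown because they belong to members of 6 different roles that were higher in tumours than in both livers of the arsenite line. For each role the member shown is the one with the smallest p among those holding both motifs within the printed stretch, which left out Cdca3 and Plk1, whose homology region begins at position 31. The stretches run from position -200 to position 30, with capitals marking the 2 motifs (ATTGG is CCAAT on the other strand).
Cenpa, chr5:30666686-30666915, plus strand: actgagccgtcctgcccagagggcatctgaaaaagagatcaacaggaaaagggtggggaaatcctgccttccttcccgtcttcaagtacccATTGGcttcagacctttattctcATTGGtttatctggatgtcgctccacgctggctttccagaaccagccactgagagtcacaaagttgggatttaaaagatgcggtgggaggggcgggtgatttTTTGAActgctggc
Mki67, chr7:135716350-135716579, minus strand: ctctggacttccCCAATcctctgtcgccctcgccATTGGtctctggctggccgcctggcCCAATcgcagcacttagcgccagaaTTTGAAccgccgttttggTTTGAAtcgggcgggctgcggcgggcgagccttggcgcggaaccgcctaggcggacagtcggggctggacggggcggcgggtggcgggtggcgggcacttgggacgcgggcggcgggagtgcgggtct
Prc1, chr7:80294251-80294480, plus strand: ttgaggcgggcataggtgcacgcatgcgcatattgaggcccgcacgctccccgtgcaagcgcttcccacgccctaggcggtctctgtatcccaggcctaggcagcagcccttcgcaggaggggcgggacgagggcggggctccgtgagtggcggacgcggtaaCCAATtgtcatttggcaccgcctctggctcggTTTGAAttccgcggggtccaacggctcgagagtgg
Cdc20, chr4:118437314-118437543, minus strand: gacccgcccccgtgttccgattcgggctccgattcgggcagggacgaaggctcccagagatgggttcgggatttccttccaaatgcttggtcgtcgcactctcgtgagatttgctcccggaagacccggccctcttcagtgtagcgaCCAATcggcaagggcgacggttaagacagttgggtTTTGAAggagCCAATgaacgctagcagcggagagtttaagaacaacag
Ccnb2, chr9:70421525-70421754, minus strand: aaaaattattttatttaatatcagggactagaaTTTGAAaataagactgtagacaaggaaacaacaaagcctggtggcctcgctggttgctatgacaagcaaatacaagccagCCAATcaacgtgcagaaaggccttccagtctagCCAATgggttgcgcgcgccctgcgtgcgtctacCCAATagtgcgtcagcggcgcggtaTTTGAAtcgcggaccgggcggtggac
Cdca8, chr4:124936888-124937117, minus strand: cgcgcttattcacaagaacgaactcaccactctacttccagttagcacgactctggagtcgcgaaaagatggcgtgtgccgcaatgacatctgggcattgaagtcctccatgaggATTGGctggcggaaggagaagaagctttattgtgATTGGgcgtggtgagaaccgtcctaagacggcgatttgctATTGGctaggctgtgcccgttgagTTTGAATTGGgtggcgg

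In these windows the CCAAT boxes lie before the homology region nearest the start, except for 1 box in Cdc20 and 1 in Cdca8. The homology region begins at position 17 in Cenpa, -5 in Prc1, -18 in Cdc20, 5 in Ccnb2 and 14 in Cdca8, whereas Mki67 has 2 of them further upstream, at -116 and -98. Cdca8 has 4 CCAAT boxes, and the last of them overlaps its homology region. Among the members tested, 21 with a homology region in their window had a median difference of 2.88 on the log2 scale between tumours and arsenite non-tumour livers, and 10 without one had a median of 2.94. These differences ran from -0.86 to 4.21 with the motif and from 1.08 to 4.75 without it, so the ranges overlapped. Ccnb1 is an example of a window with CCAAT boxes and no homology region, and it had the highest difference of the members tested in that comparison.

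**Figure D1:**
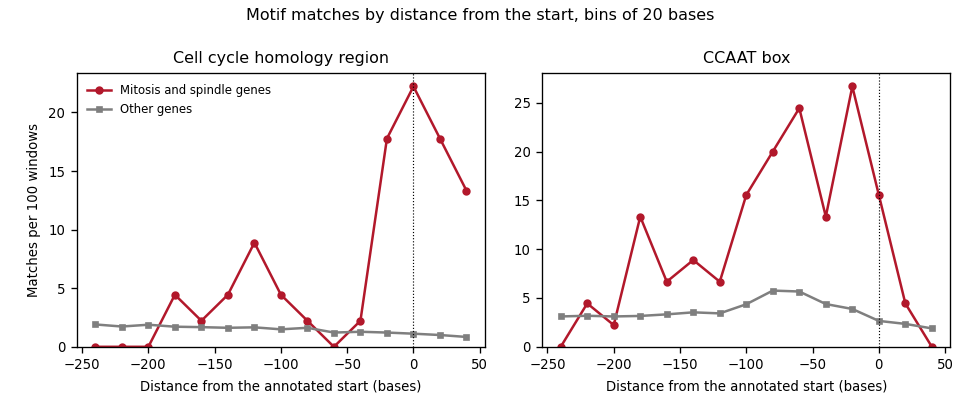
Matches of the cell cycle homology region (left) and of the CCAAT box (right) per 100 promoter windows (y axis) by distance from the annotated start in bins of 20 bases (x axis), for the 45 windows of the mitosis and spindle genes (red circles) and the windows of all other genes (grey squares). The homology region reached 22.2 matches per 100 member windows in the bin around the start, against 1.12 per 100 windows of other genes.

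Array values are given as log2 signal, which is the log2 of the scanner's processed signal minus the 75th percentile of that array, so that 0 is a probe brighter than 75 percent of the others. A probe was tested when its signal was well above background, by the scanner software's own mark, on all 3 arrays of at least 1 group. Of the 37 members tested, 20 passed this filter only through the tumours and so had to differ, and 12 were well above background on all 12 arrays. Differences are log2 differences ± standard error (SE) from 1 limma fit of the 12 arrays, with adjusted p over all 18100 genes, and a gene is called at an adjusted p under 0.05. A fold is written "at least", as a lower bound, where the lower group had no array with a signal well above background. In whole tissue, more cells of a dividing kind and more RNA per cell cannot be told apart. The tumours lay on 1 slide, the arsenite normal livers on another and both non-tumour groups on the third, so slide and group cannot be told apart in any comparison except that of the 2 non-tumour groups. No member spot was saturated on any array. Probes well above background made up 44.2 to 45.6% of all probes in tumours and 39.2 to 44.0% in the 9 livers. The 5 bright spike-in controls differed by -0.07 to 0.41 between tumours and arsenite non-tumour livers and by -0.22 to 0.05 between tumours and arsenite normal livers.

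**Figure D2:**
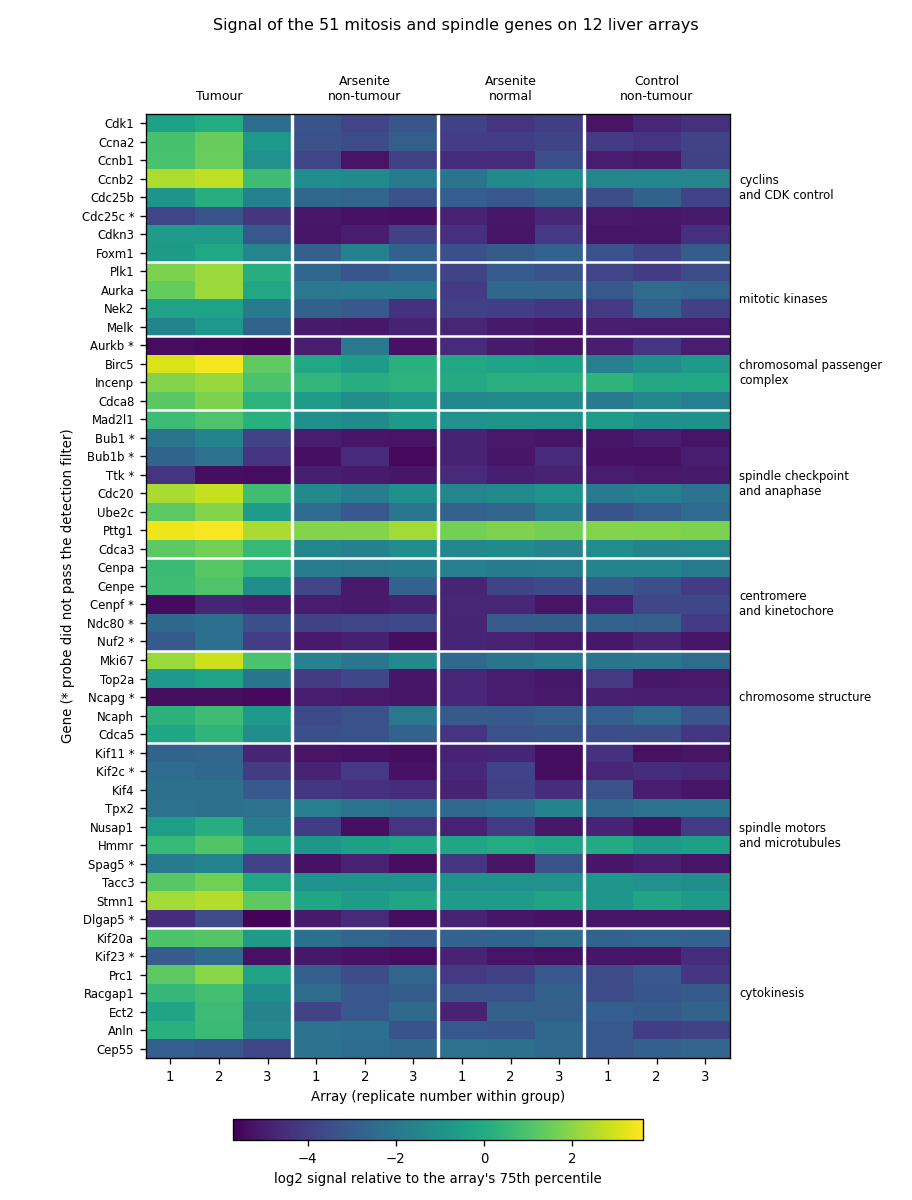
Log2 signal relative to the array's 75th percentile (colour) of the 51 mitosis and spindle genes (rows, grouped by role) on the 12 arrays (columns, grouped by tissue, replicate numbers below). An asterisk marks the 14 genes whose probe did not pass the detection filter. Tumours 1 and 2 are the brightest columns, tumour 3 lies between them and the 9 livers, and no tumour lies above all livers in the rows of Tpx2, Cep55, Aurkb, Cenpf and Ncapg.

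Mitosis and spindle genes were higher in tumours than in non-tumour liver of the same arsenite line. Of the 37 members tested, 35 were higher at an adjusted p under 0.05, where 17.1% of all genes were higher. 1 member, Cep55, was lower (30% of all genes were lower), and 1 member, Tpx2, was not called. Without the detection filter, which lets in the whole set, 42 of 51 members were higher, 1 was lower and 8 were not called, where 8.16% of 34740 genes and unnamed probes were higher and 15.4% were lower. Among the 12 members well above background on every array, 12 were higher. None of these passed only through the tumours, but this filter drops genes that are dim in tumours. It left out Cep55, which was well above background in 2 of 3 tumours. The share of all genes higher in this subset was not computed. The median difference was 2.52 on the log2 scale over the whole set without the filter against -0.25 over all genes and unnamed probes, and 2.79 over the 37 members tested, against -0.13 over all genes tested. The size of the differences depended on the processing. An alternative with normexp background correction and quantile normalization added an offset of 50 to each signal, where the arrays' median processed signals were 12.1 to 20.3. With it the same count of 35 members was higher, but the median over the 37 members was 1.39, against -0.02 over all genes. The folds of 28 members moved by more than 1.5 times. Without tumour 3 the median was 3.37, and 12 folds moved by that much. Against arsenite normal livers, 34 of 37 members were higher (17.2% of all genes), Cep55 was lower (31% of all genes), and Tpx2 and Hmmr were not called. Without the filter this was 41 of 51 higher (8.87%) and 2 lower (32.1%), the second being Ncapg. The Ncapg probe was well above background on no array, so that call is one of dim signals. The median over the 37 members was 3.13 in this comparison, 1.55 with normexp and quantile normalization, and 3.73 without tumour 3. Both comparisons share the 3 tumours. The share of higher genes among all genes called moved with the scaling of the arrays, from 33.1 to 53.4% (36.4% as reported) against arsenite non-tumour livers and from 35.7 to 62.0% (35.7% as reported) against arsenite normal livers, whereas the count of higher members was 35 under each of these scalings in the first comparison and 34 or 35 in the second.

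**Figure D3:**
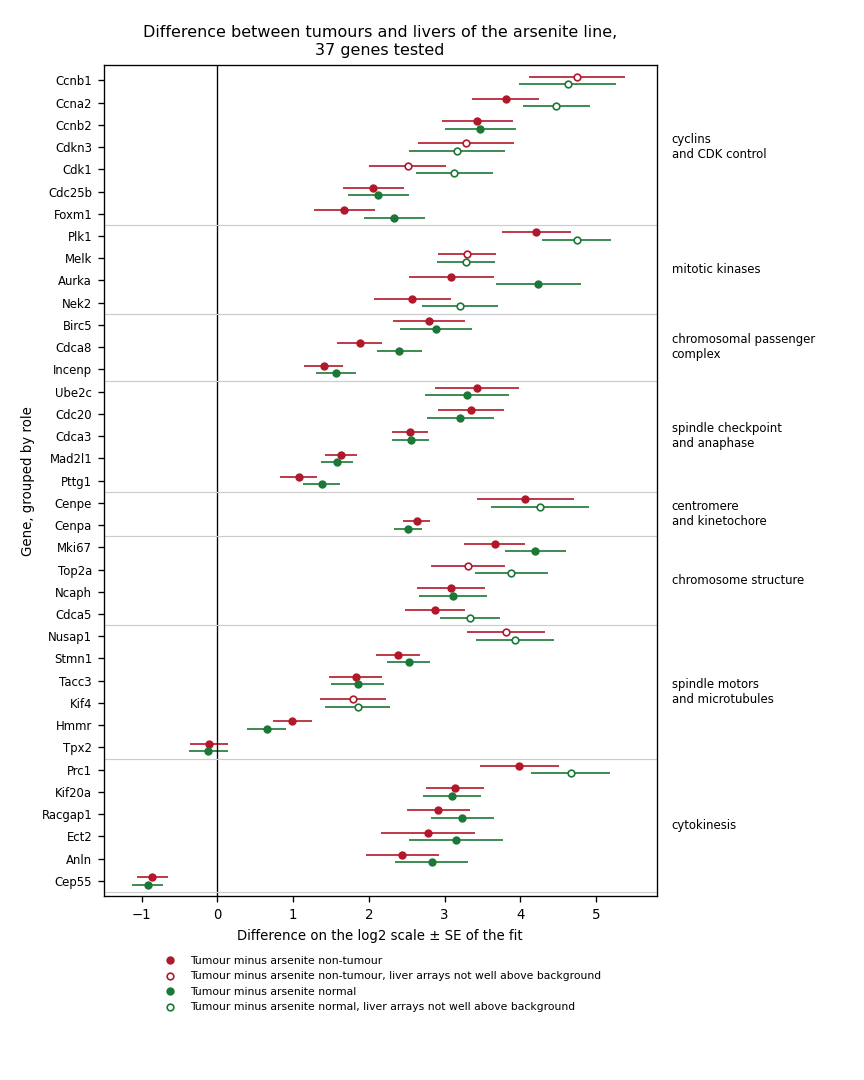
Log2 difference ± SE of the fit (x axis) for the 37 mitosis and spindle genes tested (y axis, grouped by role): tumours minus arsenite non-tumour livers (red) and tumours minus arsenite normal livers (green). Open points mark genes with no liver array of that group well above background, whose fitted difference depends on dim signals. The differences run from -0.86 and -0.92 for Cep55 to 4.75 for Ccnb1 and 4.74 for Plk1.

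Among the cyclins and the genes that control Cdk1, 7 of 8 members were tested and 7 were higher in tumours in both comparisons, but 5 of the 7 passed the filter only through the tumours. Without the filter 8 of 8 were higher, where 8.16 and 8.87% of all genes were. The member added was Cdc25c, whose probe was well above background on no array. The log2 signals of Ccnb1 were 0.92, 1.49 and -0.98 in tumours 1, 2 and 3, against -3.71, -5.19 and -3.92 in arsenite non-tumour livers, -4.47, -4.54 and -3.43 in arsenite normal livers and -4.98, -5.02 and -3.89 in control non-tumour livers. Ccnb1 encodes cyclin B1, the activating partner of Cdk1 at entry into mitosis. Every tumour lay above every liver for it, and tumour 3 was the lowest tumour. The difference from arsenite non-tumour livers was 4.75 ± 0.64 (SE, adjusted p = 0.00017, limma), at least 13.8-fold, since none of the 9 liver arrays was well above background, and the 2 other Ccnb1 probes were so in 2 tumours and no liver. Ccnb2 had log2 signals of 2.46, 2.72 and 0.73 in tumours 1, 2 and 3, against -1.20, -1.27 and -1.92 in arsenite non-tumour livers, -2.14, -1.29 and -1.07 in arsenite normal livers and -1.43, -1.41 and -1.46 in control non-tumour livers. Its liver signals are all well above background, so the fold is measured: 10.8, from a difference of 3.43 ± 0.47 (SE, adjusted p = 0.000182, limma). In tumours 1, 2 and 3 the log2 signal of Ccna2 was 0.90, 1.44 and -0.74, against -3.38, -3.57 and -2.88 in arsenite non-tumour livers, -4.00, -4.02 and -3.80 in arsenite normal livers and -4.06, -4.26 and -3.78 in control non-tumour livers. Ccna2 encodes cyclin A2, which acts from S phase into early mitosis, and 1 of 9 liver arrays was well above background, in the arsenite non-tumour group. Its difference from arsenite non-tumour livers was 3.81 ± 0.44 (SE, adjusted p = 6.45e-05, limma), and that from arsenite normal livers was 4.48 ± 0.44 (SE, adjusted p = 2.33e-05, limma), at least 13.0-fold.

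Cdk1 itself, the kinase that drives mitosis, was seen by 3 probes, of which 2 were not well above background on any array. For Cdk1 the log2 signals were -0.39, 0.03 and -2.39 in tumours 1, 2 and 3, against -3.30, -3.77 and -3.23 in arsenite non-tumour livers, -3.89, -4.27 and -3.98 in arsenite normal livers and -5.20, -4.71 and -4.39 in control non-tumour livers. These values are of the third probe, which was well above background in the 3 tumours and no liver, and it was higher in tumours by 2.52 ± 0.51 (SE, adjusted p = 0.00224, limma), at least 5.23-fold. The log2 signals of Cdc25b were -0.90, 0.08 and -1.61 in tumours 1, 2 and 3, against -2.57, -2.67 and -3.37 in arsenite non-tumour livers, -2.93, -3.16 and -2.71 in arsenite normal livers and -3.49, -2.82 and -3.82 in control non-tumour livers. Cdc25b encodes a phosphatase that activates Cdk1, and 3 of 9 liver arrays were well above background. The tumour difference was 2.06 ± 0.40 (SE, adjusted p = 0.00184, limma), a fold of 4.17. Foxm1, the transcription factor that drives many genes of this set, was higher by 1.68 ± 0.41 (SE, adjusted p = 0.0063, limma), a fold of 3.20, and by 2.34 ± 0.41 (SE, adjusted p = 0.000877, limma), a fold of 5.06, against arsenite normal livers. Its tumour signals were -0.64, -0.13 and -1.47, and 1 liver, arsenite non-tumour 2 at -1.62, came closest to tumour 3. Cdkn3, a phosphatase that acts on Cdk1 and Cdk2, was higher by 3.28 ± 0.64 (SE, adjusted p = 0.00175, limma), at least 3.71-fold, but when the 6 arrays of the 2 groups were fitted alone with the replicate number as a block its adjusted p was 0.0511, against 0.0054 with that block in the fit of 12 arrays (limma). Cdc25c, the other phosphatase of this kind on the list, was not well above background on any array.

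Each of the 4 mitotic kinases was higher in tumours in both comparisons, with and without the filter, and 3 of them passed it only through the tumours. Plk1 had log2 signals of 1.75, 2.22 and 0.09 in tumours 1, 2 and 3, against -2.55, -3.20 and -2.83 in arsenite non-tumour livers, -3.81, -3.03 and -3.33 in arsenite normal livers and -3.76, -4.09 and -3.54 in control non-tumour livers. Plk1, the polo-like kinase of centrosomes and kinetochores, did not overlap between tumours and livers, and 2 of 3 arsenite non-tumour livers were well above background, against no array of the other 2 liver groups. The difference was 4.21 ± 0.46 (SE, adjusted p = 4.19e-05, limma), a fold of 18.5, against arsenite non-tumour livers and 4.74 ± 0.46 (SE, adjusted p = 2.01e-05, limma), at least 21.2-fold, against arsenite normal livers. In tumours 1, 2 and 3 the log2 signal of Aurka was 1.40, 2.23 and -0.17, against -2.03, -1.91 and -1.87 in arsenite non-tumour livers, -4.09, -2.54 and -2.62 in arsenite normal livers and -3.13, -2.44 and -2.65 in control non-tumour livers. Aurka encodes Aurora A, the kinase that matures centrosomes and builds spindle poles. Its difference was 3.09 ± 0.56 (SE, adjusted p = 0.00112, limma) against arsenite non-tumour livers and 4.24 ± 0.56 (SE, adjusted p = 0.00015, limma) against arsenite normal livers, and 7 of the 9 livers were well above background. Nek2, a kinase that parts the centrosomes, was higher by 2.58 ± 0.51 (SE, adjusted p = 0.00191, limma), and Melk, a kinase expressed in dividing cells, by 3.30 ± 0.38 (SE, adjusted p = 6.29e-05, limma), at least 3.1-fold.

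The chromosomal passenger complex joins the kinase Aurora B with Incenp, survivin (Birc5) and borealin (Cdca8), and its 3 members tested, none of which passed the filter only through the tumours, were higher in both comparisons. For Birc5 the log2 signals were 3.06, 3.46 and 1.33 in tumours 1, 2 and 3, against -0.17, -0.55 and 0.20 in arsenite non-tumour livers, -0.13, -0.30 and -0.37 in arsenite normal livers and -1.69, -1.08 and -0.67 in control non-tumour livers. Birc5 was well above background on all 12 arrays. Tumours and livers did not overlap, and the difference was 2.79 ± 0.47 (SE, adjusted p = 0.000747, limma), a fold of 6.93. The 2 other Birc5 probes were well above background only in tumours and were higher too, by 3.64 and 2.87. The log2 signals of Cdca8 were 1.21, 1.75 and 0.32 in tumours 1, 2 and 3, against -0.59, -1.09 and -0.69 in arsenite non-tumour livers, -1.34, -1.29 and -1.30 in arsenite normal livers and -1.85, -1.41 and -1.68 in control non-tumour livers. The difference of Cdca8 was 1.88 ± 0.30 (SE, adjusted p = 0.000466, limma), a fold of 3.69, against arsenite non-tumour livers and a fold of 5.30 against arsenite normal livers. Incenp, the scaffold of the complex, was higher by 1.40 ± 0.26 (SE, adjusted p = 0.00128, limma), and its second probe by 1.48. The kinase of the complex, Aurkb, was not tested: its only probe was not well above background in any tumour, at -5.39, -5.49 and -5.55, and was so in 1 liver, arsenite non-tumour 2 at -1.98. A dim probe says nothing of the transcript itself.

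Genes of the spindle checkpoint and of anaphase entry were higher in 5 of 5 members tested, out of 8. Of these 5, 1 passed the filter only through the tumours, and without the filter 7 of 8 were higher. Cdc20 had log2 signals of 2.41, 2.79 and 0.74 in tumours 1, 2 and 3, against -1.33, -1.77 and -1.02 in arsenite non-tumour livers, -1.47, -1.26 and -0.96 in arsenite normal livers and -1.90, -1.69 and -2.17 in control non-tumour livers. Cdc20, which switches on the anaphase-promoting complex once the checkpoint is met, did not overlap between tumours and livers. The difference was 3.35 ± 0.44 (SE, adjusted p = 0.000144, limma), a fold of 10.2, and it was well above background on every array. Ube2c, the enzyme that hands ubiquitin to that complex, was higher by 3.43 ± 0.55 (SE, adjusted p = 0.000541, limma), and its second probe by 3.62. In tumours 1, 2 and 3 the log2 signal of Mad2l1 was 0.66, 1.02 and 0.21, against -1.04, -1.27 and -0.69 in arsenite non-tumour livers, -0.99, -0.87 and -0.97 in arsenite normal livers and -0.59, -1.04 and -1.05 in control non-tumour livers. Mad2l1 encodes the checkpoint protein Mad2, and its difference was 1.63 ± 0.21 (SE, adjusted p = 0.000147, limma), a fold of 3.1. The 2 other Mad2l1 probes did not pass the filter: each was well above background in 2 tumours, with 0 and 1 livers. On both, the tumours did not all lie above the livers, with tumour 3 at -5.46 and -3.65. Cdca3, a trigger of mitotic entry, had tumour signals of 1.25, 1.62 and 0.53, against -1.62 to -1.16 in the 9 livers, and was higher by 2.54 ± 0.24 (SE, adjusted p = 1.61e-05, limma).

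For Pttg1 the log2 signals were 3.36, 3.50 and 2.42 in tumours 1, 2 and 3, against 1.86, 1.87 and 2.31 in arsenite non-tumour livers, 1.65, 1.81 and 1.67 in arsenite normal livers and 1.89, 1.85 and 1.76 in control non-tumour livers. Pttg1 encodes securin, the inhibitor of the enzyme that cuts sister chromatids apart, and it was well above background on all 12 arrays. Tumour 3, at 2.42, lay just above arsenite non-tumour liver 3, at 2.31. The difference was 1.08 ± 0.24 (SE, adjusted p = 0.00428, limma), a fold of 2.11, and the adjusted p was 0.0797 with the replicate number as a block in the fit of 6 arrays and 0.00866 with it in the fit of 12 (limma). The checkpoint kinases Bub1, Bub1b and Ttk were not tested. Bub1 was well above background in tumours 1 and 2 alone, at -2.11 and -1.55, against -3.79 in tumour 3 and -5.19 to -4.80 in the livers. Bub1b had the same pattern, and without the filter both were higher, by 2.63 (adjusted p = 0.00184, limma) and 2.07 (adjusted p = 0.00849, limma). Ttk was not well above background on any array.

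At the centromere, 2 of 5 members were tested and both were higher, Cenpe having passed the filter only through the tumours, and without the filter 3 of 5 were higher. The log2 signals of Cenpa were 0.63, 1.20 and 0.43 in tumours 1, 2 and 3, against -1.77, -1.98 and -1.88 in arsenite non-tumour livers, -1.65, -1.90 and -1.75 in arsenite normal livers and -1.55, -1.51 and -1.87 in control non-tumour livers. Cenpa is the histone H3 variant that marks the centromere, and its values had little spread in any group. The difference was 2.63 ± 0.18 (SE, adjusted p = 2.23e-06, limma), a fold of 6.20, the smallest adjusted p of the set in this comparison, and 2.52 ± 0.18 (SE, adjusted p = 3.29e-06, limma), a fold of 5.73, against arsenite normal livers. Cenpe had log2 signals of 0.72, 1.02 and -1.08 in tumours 1, 2 and 3, against -3.75, -5.01 and -2.78 in arsenite non-tumour livers, -4.73, -3.79 and -3.61 in arsenite normal livers and -3.08, -3.43 and -4.09 in control non-tumour livers. Cenpe encodes the kinetochore motor that brings chromosomes to the spindle equator. Its difference was 4.07 ± 0.64 (SE, adjusted p = 0.000482, limma), a fold of 16.8 with 1 of 3 arsenite non-tumour livers well above background, and of 10.5 with the 2 dim signals raised to the dimmest one well above background on their arrays where they lay below it. Ndc80 and Nuf2, which form the main microtubule grip of the kinetochore, were well above background in tumours 1 and 2 only, and Cenpf on no array. Without the filter Nuf2 was higher by 1.99 (adjusted p = 0.00245, limma), and Ndc80 had a difference of 0.99 (adjusted p = 0.169, limma) and was not called.

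Among the genes of chromosome structure, 4 of 4 tested, out of 5, were higher in both comparisons, and 3 of these passed the filter only through the tumours. Without the filter 4 of 5 were higher in both. In tumours 1, 2 and 3 the log2 signal of Mki67 was 2.19, 2.90 and 0.98, against -1.57, -2.04 and -1.31 in arsenite non-tumour livers, -2.51, -2.11 and -1.90 in arsenite normal livers and -2.09, -2.04 and -2.42 in control non-tumour livers. Mki67 encodes Ki-67, which coats mitotic chromosomes and is the usual stain for dividing cells, and its lowest tumour lay above the highest liver by more than the range of the 9 livers. The difference was 3.67 ± 0.40 (SE, adjusted p = 4.46e-05, limma), a fold of 12.7, against arsenite non-tumour livers and 4.20 ± 0.40 (SE, adjusted p = 1.94e-05, limma), a fold of 18.4, against arsenite normal livers. A second probe gave 3.51 and 3.90. For Top2a the log2 signals were -0.66, -0.30 and -2.08 in tumours 1, 2 and 3, against -4.11, -3.72 and -5.15 in arsenite non-tumour livers, -4.63, -4.96 and -5.10 in arsenite normal livers and -4.15, -5.11 and -5.05 in control non-tumour livers. Top2a encodes the topoisomerase that untangles sister chromatids, and it was well above background in the 3 tumours and in no liver. The difference was 3.31 ± 0.48 (SE, adjusted p = 0.000296, limma), at least 4.86-fold. The condensin subunit Ncaph was higher by 3.09 ± 0.45 (SE, adjusted p = 0.00029, limma) with 1 well-detected array in each liver group, and Cdca5, which protects cohesion between sister chromatids, by 2.88 ± 0.40 (SE, adjusted p = 0.000198, limma). The other condensin subunit of the list, Ncapg, was not well above background on any array.

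**Figure D4:**
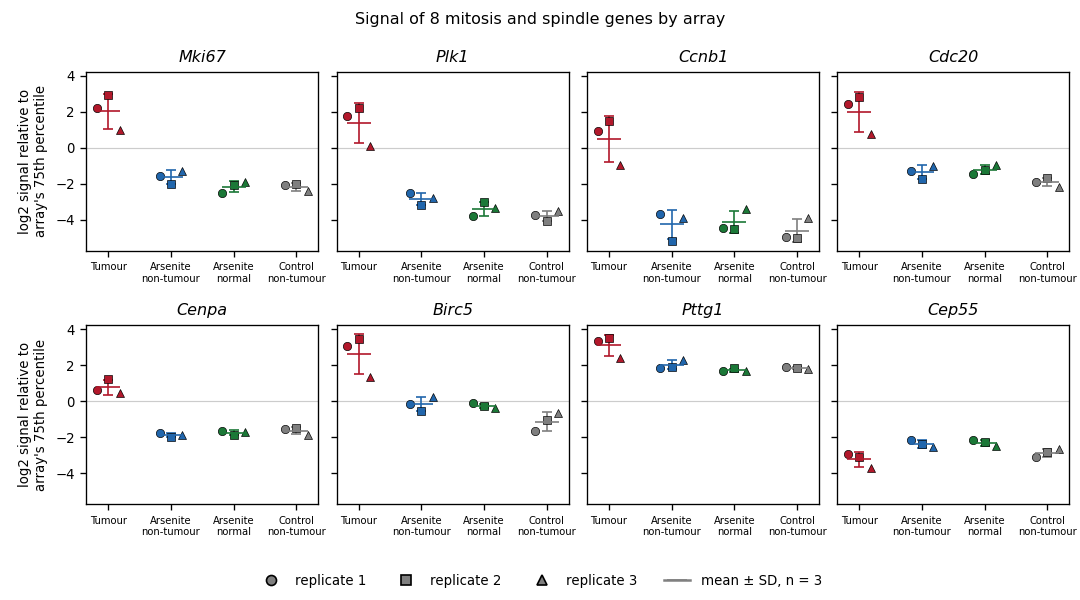
Log2 signal relative to the array's 75th percentile (y axis) of 8 genes on the 12 arrays, by group (x axis), with mean ± SD (n = 3) beside each replicate. For Mki67, Plk1, Ccnb1, Cdc20, Cenpa, Birc5 and Pttg1 the 3 tumours lie above the 9 livers, narrowly so for Pttg1, and for Cep55 tumours 1 and 2 lie among the control livers and tumour 3 is the lowest of the 12 arrays.

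Of the 10 spindle motors and microtubule proteins 6 were tested, and 5 were higher against arsenite non-tumour livers and 4 against arsenite normal livers. Of the 6, 2 passed the filter only through the tumours, and without the filter 8 and 7 of 10 were higher. The log2 signals of Stmn1 were 2.32, 2.54 and 1.29 in tumours 1, 2 and 3, against -0.19, -0.59 and -0.21 in arsenite non-tumour livers, -0.60, -0.55 and -0.28 in arsenite normal livers and -0.82, -0.28 and -0.63 in control non-tumour livers. Stmn1 encodes stathmin, which makes microtubules disassemble, and it was well above background on all arrays. It was higher by 2.38 ± 0.29 (SE, adjusted p = 8.17e-05, limma), a fold of 5.22, and its second probe by 2.31. Tacc3, which steadies the microtubules that pull on kinetochores, had tumour signals of 1.19, 1.63 and -0.16, against -1.07 to -0.77 in the 9 livers, and was higher by 1.82 ± 0.35 (SE, adjusted p = 0.00156, limma). Nusap1, a microtubule bundler, was higher by 3.82 ± 0.52 (SE, adjusted p = 0.000174, limma), at least 5.96-fold, and the chromosome motor Kif4 by 1.79 ± 0.43 (SE, adjusted p = 0.00598, limma), at least 1.69-fold.

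Hmmr and Tpx2, which both help to build spindle poles, were not called against arsenite normal livers, and Hmmr was higher against arsenite non-tumour livers. Hmmr had log2 signals of 0.53, 1.06 and 0.00 in tumours 1, 2 and 3, against -0.77, -0.42 and -0.18 in arsenite non-tumour livers, -0.18, 0.01 and -0.19 in arsenite normal livers and -0.03, -0.65 and -0.46 in control non-tumour livers. Tumour 3, at 0.00, lay within the range of the livers. The difference of Hmmr was 0.99 ± 0.26 (SE, adjusted p = 0.00952, limma) against arsenite non-tumour livers, with an adjusted p of 0.0669 with the replicate number as a block in the fit of 6 arrays and 0.0179 with it in the fit of 12 (limma). Against arsenite normal livers it was 0.65 ± 0.26 (SE, adjusted p = 0.0599, limma), not called, and without tumour 3 it was 0.91 (adjusted p = 0.0108, limma). In tumours 1, 2 and 3 the log2 signal of Tpx2 was -2.18, -2.27 and -2.21, against -1.73, -2.15 and -2.47 in arsenite non-tumour livers, -2.51, -2.29 and -1.51 in arsenite normal livers and -2.52, -2.23 and -2.07 in control non-tumour livers. This is the brighter of the 2 Tpx2 probes, and its difference of -0.11 ± 0.25 (SE, adjusted p = 0.755, limma) was within the spread between replicates. The other Tpx2 probe was well above background in the 3 tumours and in no liver, and its difference was 3.01 ± 0.43 (SE, adjusted p = 0.000259, limma fit of single probes), at least 3.83-fold. The brighter probe lies at chr2:152720285-152720344 and the other at chr2:152719476-152719535, per the array annotation on mm9. The 2 probes of Tpx2 disagree, and the gene's direction rests on which of them is read. Kif11, Kif2c and Spag5, which part the spindle poles, trim microtubule ends and hold the spindle, were well above background in no liver and in tumours 1 and 2 alone, and Dlgap5 was so on no array.

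Of the 7 cytokinesis genes, 6 were tested, 5 were higher and 1 was lower, in both comparisons, and 5 of the 6 passed the filter only through the tumours. Without the filter the counts were also 5 higher and 1 lower, of 7. For Prc1 the log2 signals were 1.27, 1.94 and -0.34 in tumours 1, 2 and 3, against -2.92, -3.49 and -2.68 in arsenite non-tumour livers, -4.10, -3.87 and -3.16 in arsenite normal livers and -3.53, -3.18 and -4.23 in control non-tumour livers. Prc1 bundles the microtubules of the central spindle, and 1 of 3 arsenite non-tumour livers was well above background. Its difference was 3.99 ± 0.52 (SE, adjusted p = 0.000142, limma), a fold of 15.8. The log2 signals of Kif20a were 0.99, 1.10 and -0.64 in tumours 1, 2 and 3, against -2.30, -2.66 and -3.01 in arsenite non-tumour livers, -2.76, -2.71 and -2.38 in arsenite normal livers and -2.78, -2.67 and -2.77 in control non-tumour livers. Kif20a, the motor that carries passenger proteins to the central spindle, was higher by 3.14 ± 0.39 (SE, adjusted p = 9.34e-05, limma), a fold of 8.81. Racgap1 and Ect2, which switch on RhoA where the cell will divide, were higher by 2.92 ± 0.42 (SE, adjusted p = 0.000246, limma) and by 2.78 ± 0.62 (SE, adjusted p = 0.004, limma). Anln, the anillin scaffold of the contractile ring, was higher by 2.44 ± 0.48 (SE, adjusted p = 0.00199, limma). Kif23, which forms centralspindlin with Racgap1, was well above background in tumours 1 and 2 only and was not tested.

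Cep55 was the exception of the set. It encodes a midbody protein needed for the last cut between daughter cells. Cep55 had log2 signals of -2.94, -3.08 and -3.71 in tumours 1, 2 and 3, against -2.17, -2.41 and -2.58 in arsenite non-tumour livers, -2.19, -2.26 and -2.52 in arsenite normal livers and -3.13, -2.86 and -2.68 in control non-tumour livers. Tumours 1 and 2 lay among the control livers and below both liver groups of the arsenite line, and tumour 3 was the lowest of the 12 arrays and not well above background. The difference was -0.86 ± 0.21 (SE, adjusted p = 0.00597, limma), 1.81-fold lower, against arsenite non-tumour livers, and -0.92 ± 0.21 (SE, adjusted p = 0.00406, limma), 1.89-fold lower, against arsenite normal livers. All these signals were near the detection limit, the other Cep55 probe was not well above background on any array, and the second of these calls was lost when arrays were scaled to their median (adjusted p = 0.0731, limma).

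The 3 tumours did not carry the genes at the same level. Among the 35 members higher than in arsenite non-tumour livers, the signal minus the mean of the 9 livers had medians of 3.45, 3.89 and 2.03 for tumours 1, 2 and 3. Tumour 2 was the highest and tumour 3 the lowest in 35 of the 37 members tested, an order that 14.9% of all genes and 22.3% of the genes called higher in tumours had. The exceptions were Tpx2 and Cep55. Tumour 2 minus tumour 3 had a median of 1.85 over the 35 members and ran from 0.77 for Cenpa to 2.57 for Cdkn3, against a median of 0.18 over all genes called higher and 0.02 over all genes. Even so, the 3 tumours lay above all 9 livers in 34 of the 37 members tested, where 15.3% of all genes did. The exceptions were Hmmr, Tpx2 and Cep55. Of the 34 members, 20 had passed the filter only through the tumours, which favours this order.

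**Figure D5:**
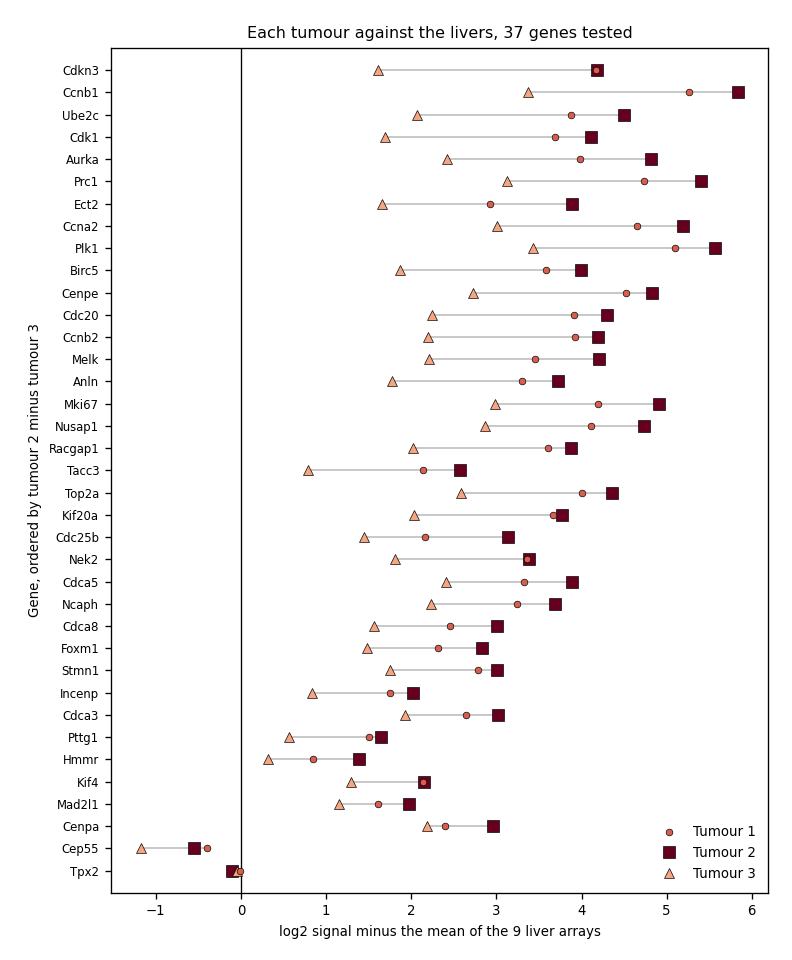
Log2 signal of tumours 1, 2 and 3 minus the mean of the 9 livers (x axis) for the 37 genes tested (y axis), ordered by tumour 2 minus tumour 3. In 35 genes tumour 2 (square) is highest and tumour 3 (triangle) lowest, with tumour 1 (circle) between them or level with tumour 2.

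No mitosis or spindle gene passed the test between any 2 of the liver groups compared. Between arsenite non-tumour and arsenite normal livers no member was called (0% of all genes were called in either direction), the lowest adjusted p of a member was 0.757 by limma, and no member and 1238 of 18100 genes had an unadjusted p under 0.05. The median difference was 0.12 over the members tested and -0.00 over all genes tested. For 5 of 37 members (7.88% of all genes) the 3 arsenite non-tumour livers lay above the 3 arsenite normal ones: Aurka, Ccna2, Cdk1, Cdca8 and Pttg1. No arsenite normal array was well above background for Ccna2, and no liver array was for Cdk1. Aurka had the largest of these differences, at 1.15 ± 0.56 (SE, adjusted p = 0.757, limma).

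Between the arsenite and the control line, non-tumour livers lay on the same slide. No member was called (0% of all genes were higher and 0.00552% lower), the lowest adjusted p of a member was 0.693 by limma, and 5 of 37 members and 1021 of 18100 genes had an unadjusted p under 0.05. Those 5 were Cdca8, Cdk1, Cep55, Foxm1 and Anln, and all were on the side of the arsenite line. Of these, Cdk1, Foxm1 and Anln had no control array well above background. Cdca8 averaged -0.79 ± 0.27 in arsenite non-tumour livers and -1.65 ± 0.22 in control non-tumour livers (SD, n = 3 each), a difference of 0.85 ± 0.30 (SE, adjusted p = 0.693, limma). For 10 of 37 members the 3 arsenite livers lay above the 3 control livers, where 3.63% of all genes did: Cdk1, Ccna2, Foxm1, Plk1, Aurka, Birc5, Cdca8, Mki67, Cdca5 and Cep55. Plk1, for instance, averaged -2.86 ± 0.33 in arsenite non-tumour livers and -3.80 ± 0.27 in control non-tumour livers, with no array of the control group well above background. Cdk1, Ccna2, Foxm1 and Cdca5 also had no control array well above background, and Cdk1 had no liver array so, which makes their order one of dim signals. The median difference of the 37 members was 0.24, against -0.02 for all genes, and the 5 bright spike-ins differed by -0.46 to -0.15 in this comparison. The highest of the 9 livers was an arsenite non-tumour one in 24 of 37 members, against 30.7% of all genes. None of these differences passed the test over all genes.

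Genes of the same processes that are not members were read from lists of known components. Their counts stand against 17.1% of all genes higher and 30% lower in tumours than in arsenite non-tumour livers. Of 22 other spindle and cytokinesis genes tested, 17 (77.3%) were higher and 1 (4.55%) was lower, with a median difference of 1.49, but 11 of the 22 passed the filter only through the tumours. Psrc1, a microtubule protein, averaged 2.52 ± 0.58 in tumours and -5.06 ± 0.38 in arsenite non-tumour livers (SD, n = 3 each), at least 56.9-fold higher (adjusted p = 7.68e-08, limma). Of 24 other kinetochore genes 12 were higher and 3 (12.5%) lower, and 6 passed only through the tumours. Among those higher were Spc25, a partner of Ndc80, by 2.47 ± 0.27 (SE, adjusted p = 4.46e-05, limma), and Sgo1, the guardian of centromeric cohesion, at least 7.19-fold. Condensin and cohesin had 4 of 16 higher (25.0%), a share not far from that of all genes, and 0 lower, with Smc2 at 1.37 ± 0.27 (SE, adjusted p = 0.002, limma) and Ncapd2 at 1.02 ± 0.18 (SE, adjusted p = 0.000846, limma).

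The list of the anaphase-promoting complex, whose activator Cdc20 was higher, held its subunits and also Fzr1, Fbxo5 and Ube2s. Of 16 genes of this list tested, 1 was higher (6.25%) and 3 lower (18.8%), both below the shares of all genes. Anapc4 was at 0.53 ± 0.14 (SE, adjusted p = 0.0107, limma) and Cdc26 at -0.49 ± 0.08 (SE, adjusted p = 0.000472, limma). Regulators of mitotic entry and of the DREAM complex, which represses these genes in resting cells, had 7 of 18 higher (38.9%) and 5 lower (27.8%), the second near the share of all genes. Mybl2, which activates late cell cycle genes, was higher by 2.61 ± 0.29 (SE, adjusted p = 5.17e-05, limma), whereas Rbl2, the p130 subunit of DREAM, fell in tumours, with a difference of -1.14 ± 0.13 (SE, adjusted p = 4.58e-05, limma). The inhibitory kinase Pkmyt1 was higher by 3.30 ± 0.36 (SE, adjusted p = 4.19e-05, limma). Genes of G1 and S phase entry had 15 of 29 higher (51.7%) and 3 lower (10.3%), 5 of the 29 having passed only through the tumours, with Ccne1 (cyclin E1) at 4.16 ± 0.35 (SE, adjusted p = 7.6e-06, limma) and, in the other direction, Mcm10 at -2.94 ± 0.33 (SE, adjusted p = 5e-05, limma) and Tk1 at -1.54 ± 0.14 (SE, adjusted p = 1.55e-05, limma). Against arsenite normal livers the counts of higher and lower genes were 16 and 1 for other spindle and cytokinesis genes, 11 and 1 for kinetochore genes, 6 and 0 for condensin and cohesin, 1 and 2 for the anaphase-promoting complex, 6 and 6 for mitotic entry and DREAM, and 17 and 3 for G1 and S phase, where 17.2% of all genes were higher and 31% lower. No gene of these lists was called between the livers.

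Markers of other cell types were read against the same shares, 17.1% of all genes higher and 30% lower than in arsenite non-tumour livers. Hepatocyte markers were present in all groups, and of 12 tested 1 was higher and 2 lower than in arsenite non-tumour livers. Albumin (Alb), their brightest gene, had a difference of -0.05 ± 0.10 (SE, adjusted p = 0.722, limma). The summed linear level of the hepatocyte list, in units of each array's 75th percentile, was 8733 to 10430 in tumours and 9809 to 11870 in the 9 livers. Against arsenite normal livers 1 of the 12 hepatocyte markers was higher and 6 were lower, where 17.2% of all genes were higher and 31% lower. Macrophage markers were lower in 10 of 12 against arsenite non-tumour livers and in 6 of 12 against arsenite normal livers. Their summed level was 52.3 to 93.8 in tumours and 114.5 to 196 in the livers. Of 7 T and NK cell markers 1 was higher and 1 lower, and their summed level was 130.0 to 176 in tumours, most of it from Cd4, and 32.0 to 70.5 in the livers, while Cd8a and Klrb1c were well above background on no array. Of 12 stellate cell and fibroblast markers 4 were higher and 6 lower (sum 24.5 to 34.8 in tumours and 70.7 to 94.3 in the livers), and against arsenite normal livers 2 were higher and 6 lower. Among 12 endothelial markers 3 were higher and 3 lower (sum 63.7 to 82.9 in tumours and 91.7 to 120.4 in the livers). Of 5 B and plasma cell markers 2 were higher (sum 5.95 to 7.67 in tumours and 4.07 to 6.10 in the livers), and Pax5, Tnfrsf17 and Blk were among those well above background on no array. The 6 neutrophil markers had 2 lower (sum 113 to 143 in tumours and 121 to 143 in the livers), and Mmp8 and Ngp were well above background on no array. Erythroid markers had 2 higher and 2 lower of 8 (sum 518 to 589 in tumours and 288 to 603 in the livers), and Ahsp was among those well above background on no array. Of 6 bile duct markers 1 was higher (sum 4.02 to 7.45 in tumours and 2.30 to 3.56 in the livers), and Muc1 was well above background on no array. Against arsenite normal livers the counts were the same for T and NK, B and plasma, neutrophil, endothelial, erythroid and bile duct markers. The part of these cells in the level of the mitosis and spindle genes was not tested.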

How the data were processed

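Per the labels' protocols, RNA was purified with a DNase step and 100 ng was labelled with Cy3 by the authors. The scanner files were, per the file headers, written by Agilent Feature Extraction 10.7.3.1 (the submitters' processing notes name 12.0.3.1) and give as deposited a processed signal per spot, an intensity after background subtraction, not scaled between arrays. The authors' deposited value table is a linear ratio, checked to be that signal divided by the array's 75th percentile over all spots, and served as an alternative.

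Log2 processed signals minus the 75th percentile of the non-control spots of each array were computed here from the deposited intensities, and spots of a probe without an outlier mark were averaged. Probes took the gene of their accession in the RefSeq table (27319 probes), their symbol (3528) or a synonym (551). The file's own name stayed for 24283. The 51 members had 75 probes, and 19 members had more than 1. Probes passed when 1 group or more had all 3 arrays well above background, and the brightest stood for its gene. The array number limits precision. limma 3.58.1 in R 4.3.3 fitted the 12 arrays with 1 mean per group (2-sided moderated test, default eBayes), with Benjamini-Hochberg adjustment over 18100 genes in each of 4 comparisons, and was tested on simulated data. The fit pools the spread of all groups, tumours included. For a lower bound, a dim signal below the lowest one well above background on its array was set to that one. Folds are means of log2 values turned to a linear scale. Python 3.11.15, pandas 2.3.3, numpy 2.4.6 and matplotlib 3.10.9 served for the rest. All deposited sample columns had a sample (0 left unused).

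Members, gene lists, roles and motifs were chosen with earlier results of these data known. Any member could be named. From each of 6 pathway lists, at most 4 called genes with the smallest p could be named, and from each of 9 cell type lists, markers well above background on no array or the brightest. Promoters were shown for at most 6 members higher in both tumour comparisons, 1 per role by the smallest p among those with both motifs between positions -200 and 30.

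Whether samples of equal number share a mouse is not given in the labels. Between tumours and arsenite non-tumour livers the residuals of equal-numbered arrays had correlations of 0.14, 0.14 and 0.23, and those of other pairs ran from -0.16 to -0.00, so a fit with the number as a block is printed where it changed a call. The pairing comes from these correlations alone. Residuals from group means cancel out within a group, so positive values in some pairs push those of the others to be negative. In the other comparisons not every pair passed 0.1. Alternatives covered normalization, background correction, scaling, filter, probe choice, samples in the fit, block, array weights, fold threshold and leaving out each replicate.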

Additional observations from a re-analysis of the deposited data

How the results depend on the processing

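With the replicate number as a block and the 6 arrays of tumour and arsenite non-tumour tissue, 32 members were higher in place of 35, since Cdkn3 (adjusted p = 0.0511), Pttg1 (0.0797) and Hmmr (0.0669) were no longer called by limma, while with the block in the fit of 12 arrays 35 were higher, and the blocks changed no other member's call. When only probes well above background on all 12 arrays were kept, 12 members were tested, 12 were higher and 0 lower than in arsenite non-tumour livers, and 11 were higher and 0 lower than in arsenite normal livers, since fewer genes were tested. This filter drops genes that are dim in tumours, Cep55 among them, and the shares of all genes higher or lower under it were not computed. A threshold of at least 2-fold left 0 members lower in either comparison. Against arsenite normal livers 0 members were lower with median scaling, where Cep55 had an adjusted p of 0.0731 (limma). Without a filter 2 were lower, of which Ncapg was well above background on no array. With the mean of its probes Tpx2 turned to 1.45 (adjusted p = 0.00168, limma) and 1.59 (adjusted p = 0.000969, limma), because its 2 probes disagree. Hmmr was called against arsenite normal livers in 6 alternatives, with adjusted p of 0.0108 to 0.0466 by limma (quantile normalization, normexp, median scaling, detected probes, array weights, and without tumour 3). Leaving out each replicate gave 35 to 35 higher and 1 to 1 lower against arsenite non-tumour livers, 34 to 35 higher and 1 to 1 lower against arsenite normal livers, and 0 to 0 called between livers. Over single members, 637 of the values in the first comparison and 633 in the second kept direction and side of the threshold, and 641 did so in each comparison of livers. Fitting probes one by one, chosen after seeing the data, gave 36 and 35 members higher. Normexp with quantile normalization gave 35 members higher in both comparisons but gave medians of 1.39 and 1.55 over the 37 members, in place of 2.79 and 3.13, and moved the folds of 28 and 29 members by more than 1.5 times. That setting included the offset of 50, and the parts of offset, background correction and normalization in this change were not tested. Leaving out tumour 3 moved 12 folds by that much in each comparison, and leaving out arsenite normal liver 1 moved that of Ect2 (2.50 on the log2 scale). Raising dim liver signals to the dimmest one well above background, chosen after seeing the data, moved the fold of Cenpe to 10.5 from 16.8 against arsenite non-tumour livers and that of Ect2 to 5.69 from 8.86 against arsenite normal livers. Median scaling moved the median of all genes to -0.20 and 0.09 in the tumour comparisons and to 0.32 and 0.26 between livers. The slide as a block was not run: it equals the group in the comparisons with tumours or normal livers, and the non-tumour groups share 1 slide. Dim liver signals limit 7 of the 35 folds against arsenite non-tumour livers to lower bounds.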

Other observations

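Promoter windows of the genes outside the set were read in the same way, as a description. The cell cycle homology region stood in 63.3% of 30 windows of other spindle and cytokinesis genes, 53.8% of 13 windows of condensin and cohesin genes and 41.7% of 36 windows of other kinetochore genes. It stood in 26.3% of 19 windows of mitotic entry and DREAM regulators, 21.1% of 19 windows of the anaphase-promoting complex and 16.7% of 30 windows of G1 and S phase genes, against 19.2% of all windows. The CCAAT box ran in another order: 69.4% of the windows of other kinetochore genes, 66.7% of other spindle and cytokinesis genes and 63.3% of G1 and S phase genes held it, against 37.4% of all windows. Among genes outside the set that were higher in tumours in both comparisons, 13.9% of 2145 windows held the homology region and 36.0% held a CCAAT box.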
